A study of Bos taurus with 9 samples.

Results

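Cells given DPPA3 mRNA together with a transfection reagent were compared with cells given neither, so the comparison measured the joint difference made by mRNA and reagent. The 2 groups were taken by their labels and hold 6 of the 9 libraries of the series, 3 in each group. All libraries came from cultured cells labelled as bovine endometrial epithelial cells, kept in a commercial endometrial growth medium. The untreated control cells received no reagent and no RNA. The DPPA3 mRNA cells received in vitro transcribed DPPA3 mRNA (500 ng) carried by jetMESSENGER, a reagent that brings mRNA into cells, 24 hours after seeding. The 3 libraries of the remaining group, reagent alone, came from cells given jetMESSENGER without RNA, and their values are set beside the others to show how a difference divides into 2 steps. No group received another mRNA, the time of harvest is not stated, and the labels do not say whether replicates are separate cultures or animals. The p-values therefore rest on the spread among these libraries alone, and that spread may be technical.

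DPPA3, also called STELLA or PGC7, is a small protein of oocytes, early embryos and primordial germ cells that protects DNA methylation of the maternal genome and binds UHRF1, the adaptor of the maintenance methyltransferase. Cells sense foreign RNA through cytosolic receptors such as RIG-I (DDX58) and MDA5 (IFIH1) and through TLR3. These lead to secretion of interferons, whose receptors act through transcription factors such as STAT2 and IRF9 to switch on interferon-stimulated genes. In the ruminant uterus the same genes are known to respond to interferon tau, the signal by which the early conceptus maintains pregnancy.

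Total counts ran from 7258348 to 10130619 in the untreated controls, from 11070923 to 13258036 with DPPA3 mRNA and from 3890134 to 12092771 with reagent alone. A count of 0 in a library allows up to 3 counts, or 0.293 to 0.483 CPM in the controls and 0.226 to 0.271 CPM with DPPA3 mRNA (CPM, counts scaled to a common library size), which covers counting error only. Untreated control replicate 1 stood apart. The gene LOC112442408 took 10.98% of its counts, against 4.13% and 4.36% in the other controls, and transcripts of the mitochondrial genome's proteins took 0.172%, against 0.459% and 0.411%. Markers of the labelled cell type were present in part. Keratins KRT8 (4019 to 4995 CPM over the 6 libraries) and KRT19 and the adhesion protein CDH1 (45.1 to 58.6 CPM) were present, whereas 5 of the 15 epithelial markers, EPCAM, CLDN3, CLDN7, ESRP1 and GRHL2, lay under 1 CPM in all 6 libraries. All 15 stromal markers had enough counts to be tested, with VIM at 1349 to 1725 CPM and the collagen gene COL1A1 at 8433 to 18920 CPM. PTPRC, the pan-leukocyte marker, had 0 counts in every library.

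DPPA3 itself was measured first because it checks the labels. It stood at 9526, 19312 and 18096 CPM in DPPA3 mRNA replicates 1, 2 and 3, at 0, 0.22 and 0.098 CPM in untreated control replicates 1, 2 and 3, and at 0 counts in each library with reagent alone. Every transfected library was far above every other library, and replicate 1 had the lowest level of the 3. DPPA3 rose in the edgeR quasi-likelihood test (Benjamini-Hochberg adjusted p 1.56e-08). The transfected mRNA itself is counted here, so this call checks the labels and is no response of the cells. DPPA3 also passed the count filter only through the DPPA3 mRNA libraries.

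Among the cell's own genes, genes of the interferon response were higher with DPPA3 mRNA, and IFITM1 was the 1 gene beside DPPA3 that passed the test. Of 14874 genes tested, 0.0134% were called higher by edgeR (2 genes) and 0 lower. At an unadjusted p under 0.05 there were 311 higher (2.09%) and 271 lower (1.82%). In 631 genes (4.24%) every DPPA3 mRNA library lay above every control, and in 574 (3.86%) every one lay below. When replicate numbers were kept as a block, 6 genes were called higher (0.0403%) and 1 lower (0.00672%) by edgeR on all 9 libraries, with MX2, RSAD2, LOC100298356 and LOC112441507 joining DPPA3 and IFITM1 and the noncoding gene LOC100847765 called lower. With the block and only the 6 libraries compared, 19 genes were called higher (0.132%) and 1 lower (0.00696%). Of these 20, 14 belonged to lists of interferon response genes. They were 11 of 35 tested antiviral effectors, 2 of 6 ISG15 conjugation genes and 1 of 11 RNA sensors and adaptors. Among them MX2, RSAD2 and RTP4 passed the filter on all 9 libraries only through the DPPA3 mRNA libraries. IFI44L and ISG15 too passed the filter on the 6 libraries only through the DPPA3 mRNA libraries. The 13 of the 20 that the 9-library block did not call were DDX58, EIF2AK2, HERC6, IFI27, IFI44L, IFI6, IFIT5, ISG15, LOC100139670, LOC512486, MX1, PARP14 and RTP4. DESeq2 without a block called 10 higher (0.0672%), among them MX1, IFI6, RTP4 and ZBP1, and 0 lower.

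**Figure D1:**
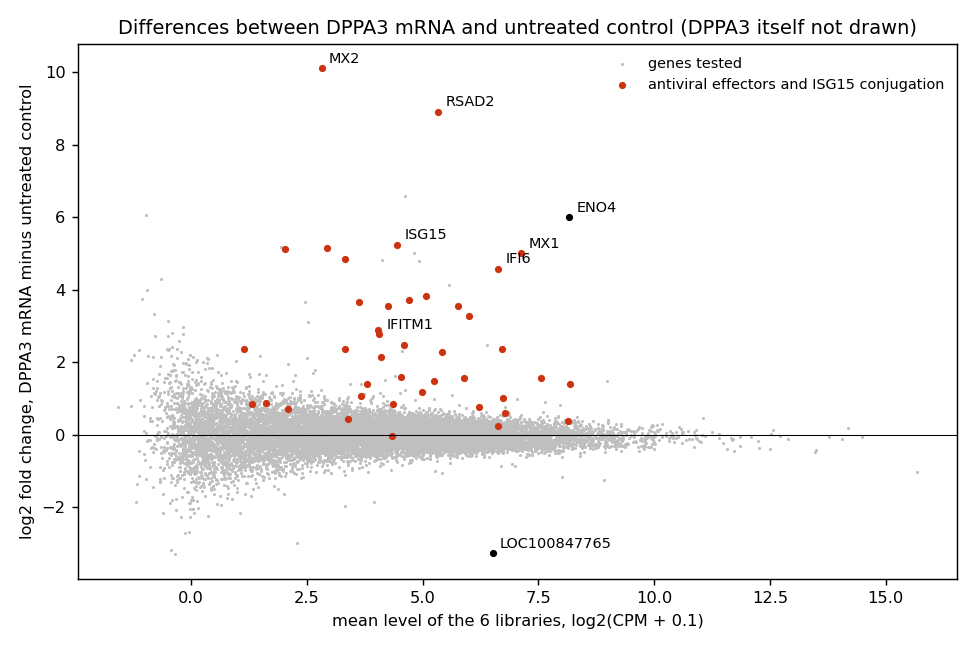
Each point is 1 gene tested, with its mean level in the 6 libraries on the horizontal axis (log2 of CPM + 0.1) and its edgeR log2 fold change, DPPA3 mRNA minus untreated control, on the vertical axis; red points are antiviral effectors and ISG15 conjugation genes. Most red points lie above 0 and LOC100847765 lies among the lowest at -3.28; the height of MX2, with 0 counts in the controls, is a fitted value that depends on the prior count.

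IFITM1 encodes a membrane protein that restricts the entry of enveloped viruses. In DPPA3 mRNA replicates 1, 2 and 3 it stood at 17.4, 42.3 and 27.0 CPM, against 3.38, 4.01 and 5.18 CPM in the controls. All 3 transfected libraries were above all controls, and also above the reagent alone libraries (5.98, 8.89 and 4.10 CPM). IFITM1 rose with a log2 fold change of 2.77 (SE 0.38; edgeR adjusted p 0.037, and 0.0055 with the replicate block). Without the block the call was lost when any of the 6 libraries other than DPPA3 mRNA replicate 1 was left out, and in a fit of only the 6 libraries (edgeR adjusted p 0.0846). Without DPPA3 mRNA replicate 2 the log2 fold change was 2.39 (edgeR adjusted p 0.105). Reads of close family members may be counted with it.

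The dynamin-like GTPases MX1 and MX2 trap viral components, and RSAD2 (viperin) makes a nucleotide that ends viral RNA chains. MX2 had 0 counts in the 3 controls and measured 1.43, 38.7 and 1.70 CPM with DPPA3 mRNA. With the controls at a floor of 3 counts per library it was at least 37.9-fold higher, or 4.26-fold without DPPA3 mRNA replicate 2. RSAD2 measured 8.82, 225 and 7.21 CPM with DPPA3 mRNA, against 0, 0 and 0.39 CPM in the controls. In both genes the groups did not overlap and DPPA3 mRNA replicate 2 was far above the other transfected libraries. Both were called with the replicate block (edgeR adjusted p 0.0245 for MX2 and 0.0182 for RSAD2) and not without it (0.475 and 0.206). Both passed the count filter only through the DPPA3 mRNA libraries, so a difference was built into their selection. MX1 measured 27.9, 670 and 116 CPM, against 5.80, 10.2 and 8.80 CPM (log2 fold change 5.02, SE 0.91; edgeR adjusted p 0.206, or 0.00297 with the block on the 6 libraries). Its transfected libraries were all above the controls, in the order 2, 3, 1.

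The antiviral effector list held 48 genes, of which 44 were found and 35 had enough counts to be tested. The count filter was passed by 5 of the 35 (MX2, RSAD2, RTP4, GBP4 and XAF1) only through the DPPA3 mRNA libraries. Their selection therefore favoured a higher level there. The groups of GBP4, 1 of these 5, still overlapped (1.36, 8.76 and 0.42 CPM with DPPA3 mRNA, 1.77, 0.43 and 0 CPM in the controls). Of the other 30, 29 had a fitted difference above 0. An unadjusted p under 0.05 was found in 24, against 1.92% of the 14399 genes that pass the filter in the same way, and in 15 the groups did not overlap upward, against 4.04%. Their median log2 fold change was 1.56, beside -0.0051 for the 14399, and 0.68 without DPPA3 mRNA replicate 2. IFITM1 was the 1 member called by edgeR, with or without the block on all 9 libraries. Among the 14399 genes, 1 was called higher without that block and 2 with it. With the block on the 6 libraries 8 of the 30 were called, against 14 called higher among those of the 14399 that this fit tested. The fit filtered genes anew on the 6 libraries. IFI44L, 1 of the 8 (1, 14 and 2 counts in the controls), passed there only through the DPPA3 mRNA libraries, so its selection favoured a higher level.

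The size of the difference was uneven between the 3 transfected libraries. Of these 30 antiviral effectors, 15 were above all controls in DPPA3 mRNA replicate 1, 29 in replicate 2 and 27 in replicate 3, where 15.8%, 26.1% and 17.3% of the 14399 genes were. Replicate 2 was the highest of the 3 in 29 of 30, against 36.3%. The order 2, 3, 1 held in 27 of 30, against 22.6%. Averaged over all 35 members as log2(CPM + 1), the level was 3.85 in DPPA3 mRNA replicate 1, 6.39 in replicate 2 and 4.51 in replicate 3. It was 3.09 to 3.31 in the controls. Of the 35, 5 pass the filter only through the DPPA3 mRNA libraries. The order of DPPA3 itself was also 2, 3, 1, but its level in replicate 3 was close to that in replicate 2. Fewer responding cells and less RNA per cell cannot be told apart in bulk libraries.

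Other effectors followed the same library order. IFI6, a mitochondrial and endoplasmic reticulum membrane protein, measured 21.3, 461 and 88.8 CPM with DPPA3 mRNA and 5.80, 8.66 and 9.10 CPM in the controls. RTP4, a chaperone of receptors that also restricts viruses, measured 2.26, 35.1 and 6.54 CPM against 0.48, 0.65 and 0.098 CPM. SAMD9, a restriction factor of poxviruses, measured 8.52, 122 and 14.3 CPM against 3.22, 4.01 and 3.62 CPM. In all 3 genes the groups did not overlap and replicate 1 was the lowest transfected library. None was called by edgeR without a block (adjusted p 0.286, 0.28 and 0.375), and with the block on the 6 libraries IFI6 (0.00791) and RTP4 (0.00237) were called. RTP4 also passed the filter only through the DPPA3 mRNA libraries. For OAS1Y, a copy of the enzyme that makes the activator of RNase L, the levels were 18.5, 253 and 76.2 CPM against 9.99, 10.8 and 14.9 CPM. Its edgeR adjusted p was 0.375, and reads may be shared with its near-identical copies. EIF2AK2, the kinase PKR that halts translation on sensing double-stranded RNA, overlapped between the groups (106, 536 and 200 CPM against 45.3, 129 and 111 CPM). Each transfected library was above the control of its own number, and EIF2AK2 rose with the block on the 6 libraries (edgeR adjusted p 0.0122, or 0.852 without a block).

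**Figure D2:**
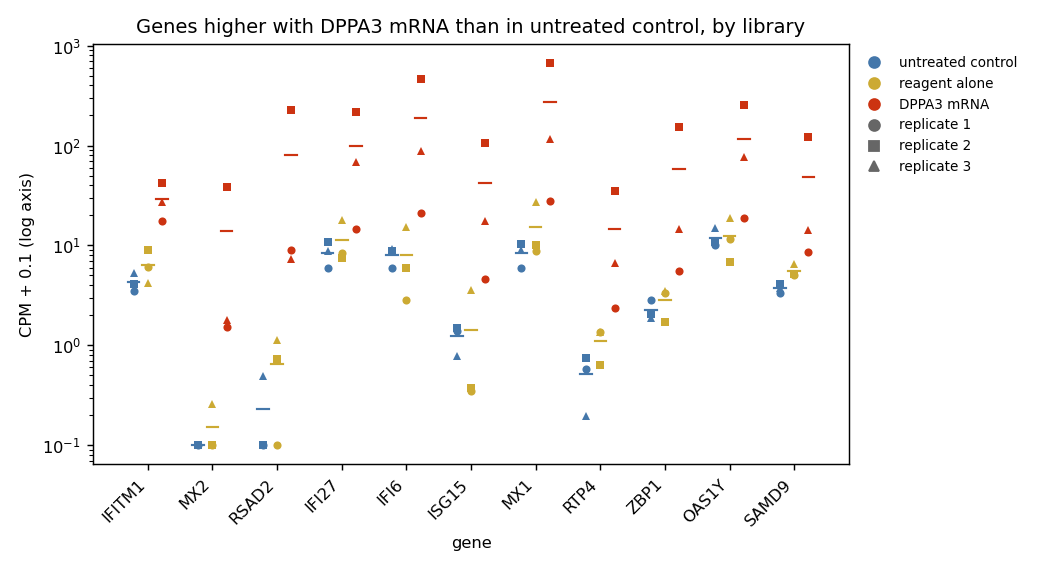
Level of the 11 genes of smallest p in the higher direction, beside DPPA3, that have no overlap between groups, on a log axis (CPM + 0.1); each point is a library, its shape the replicate number, its colour the group, and each bar a group mean. DPPA3 mRNA replicate 2 is the highest point of every gene. Among all 14874 genes it is the highest of the DPPA3 mRNA libraries in 5392. In 9 of the 11 all DPPA3 mRNA points lie above all reagent alone points, against 730 of the 14874. The 11 were picked for high DPPA3 mRNA values, and MX2, RSAD2 and RTP4 pass the filter only through those libraries.

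ISG15 is a ubiquitin-like protein that is joined to other proteins by UBA7, HERC5 or HERC6 and removed by USP18. ISG15 measured 4.52, 105 and 17.6 CPM with DPPA3 mRNA, against 1.29, 1.41 and 0.68 CPM in the controls. Every transfected library was above every control (log2 fold change 5.24, SE 1.09, edgeR adjusted p 0.375, and 0.00237 with the block on the 6 libraries). In the fit on the 6 libraries ISG15 passed the count filter only through the DPPA3 mRNA libraries, so its selection there favoured a higher level. UBA7, the activating enzyme, measured 12.7, 158 and 41.0 CPM against 14.3, 13.3 and 15.9 CPM, so its replicate 1 lay below all controls. Of the 6 genes of this system, all tested, 5 had an unadjusted p under 0.05, against 2.09% of all genes, and in 3 (ISG15, HERC5 and USP18) the groups did not overlap upward, against 4.24%. The median log2 fold change was 1.94, or 0.73 without DPPA3 mRNA replicate 2. No member was called by edgeR over all genes without a block.

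Among the sensors, ZBP1, which binds Z-form nucleic acids, measured 5.43, 155 and 14.6 CPM with DPPA3 mRNA and 2.74, 1.95 and 1.76 CPM in the controls. Its groups did not overlap (log2 fold change 4.78, SE 1.0; edgeR adjusted p 0.375). DDX58 measured 30.5, 309 and 86.3 CPM against 14.2, 32.2 and 29.0 CPM, with replicate 1 inside the range of the controls. It rose with the block on the 6 libraries (edgeR adjusted p 0.0272) and was not called without a block (0.834). IFIH1 likewise overlapped (8.14, 89.6 and 18.7 CPM against 5.80, 9.20 and 8.21 CPM). Of 11 sensors and adaptors tested, 4 had an unadjusted p under 0.05 (DDX58, IFIH1, DHX58 and ZBP1), against 2.09% of all genes, and 3 (ZBP1, TLR3 and the kinase adaptor TANK) did not overlap upward, against 4.24%. The median of the list was 0.65, or 0.29 without control replicate 1 and 1.06 without control replicate 2.

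Differences were smaller among the genes that carry the interferon signal. STAT2 measured 38.6, 47.9 and 40.9 CPM with DPPA3 mRNA and 32.7, 29.4 and 33.1 CPM in the controls, without overlap. IRF9, its DNA-binding partner, measured 37.5, 105 and 61.4 CPM against 39.2, 26.0 and 30.8 CPM, with overlap. Of the 19 tested members of the signalling list, 5 had an unadjusted p under 0.05 with a higher level, among them STAT2 and IRF9, against 2.09% of all genes. In 2 the groups did not overlap upward (STAT2 and IRF1), against 4.24%, and in 1 downward (the receptor chain IL10RB), against 3.86%. The median was 0.10, or 0.02 without control replicate 1, and edgeR called none. Interferons themselves were scarce: of the 12 that were found, 2 could be tested, and of the other 10, 8 had 0 counts in all 9 libraries. The highest total among these 10 was 34 counts.

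Over 25 antigen presentation genes the median difference was 0.34 on the log2 scale. Those with an unadjusted p under 0.05 were 5, all higher, against 2.09% of all genes: B2M, the light chain of MHC class I; ERAP1 and ERAP2, which trim peptides; PSME1, a proteasome activator; and BOLA-DMB, a class II chaperone. ERAP2 measured 20.4, 38.2 and 32.9 CPM with DPPA3 mRNA and 9.83, 22.8 and 18.3 CPM in the controls, with overlap. In 2 of the 25 (BOLA-DMB and TAPBPL) the groups did not overlap upward, against 4.24% of all genes, and in 2 (CD74 and IFI30) downward, against 3.86%. BOLA-DMB passed the filter only through the DPPA3 mRNA libraries. With DPPA3 mRNA replicate 2 left out, the median over the 25 was 0.20. No member was called by edgeR. TNFSF10 (TRAIL), a death receptor ligand, measured 0.75, 24.5 and 4.92 CPM against 1.45, 0.32 and 0.68 CPM, so that replicate 1 lay within the controls (log2 fold change 3.67, SE 0.99; edgeR adjusted p 0.852). TNFSF10 too passed the filter only through the DPPA3 mRNA libraries.

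Over the 30 antiviral effectors that pass the filter without the DPPA3 mRNA libraries, the median log2 fold change was 0.14 from untreated control to reagent alone and 1.46 from reagent alone to DPPA3 mRNA. These comparisons share libraries, and the values are given side by side only. In 2 of the 30 all reagent alone libraries lay above all controls and in 2 below, against 7.01% and 7.25% of the 14399 genes. In 11 all DPPA3 mRNA libraries lay above all reagent alone libraries, against 4.64%. Reagent alone replicate 3 stood above the rest of its group: the 35 effectors averaged 3.62 there as log2(CPM + 1), against 3.17 and 3.27 in replicates 1 and 2. Their summed level in replicate 3 was 1135 CPM, above the 1069 CPM of DPPA3 mRNA replicate 1 and the 844 to 1041 CPM of the controls. MX1 measured 27.1 CPM in that library, close to the 27.9 CPM of DPPA3 mRNA replicate 1. The ISG15 conjugation genes averaged 3.65 there, against 3.55 in DPPA3 mRNA replicate 1. In the step from reagent alone, DPPA3 was called by edgeR, and IFITM1 had an adjusted p of 0.312.

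**Figure D3:**
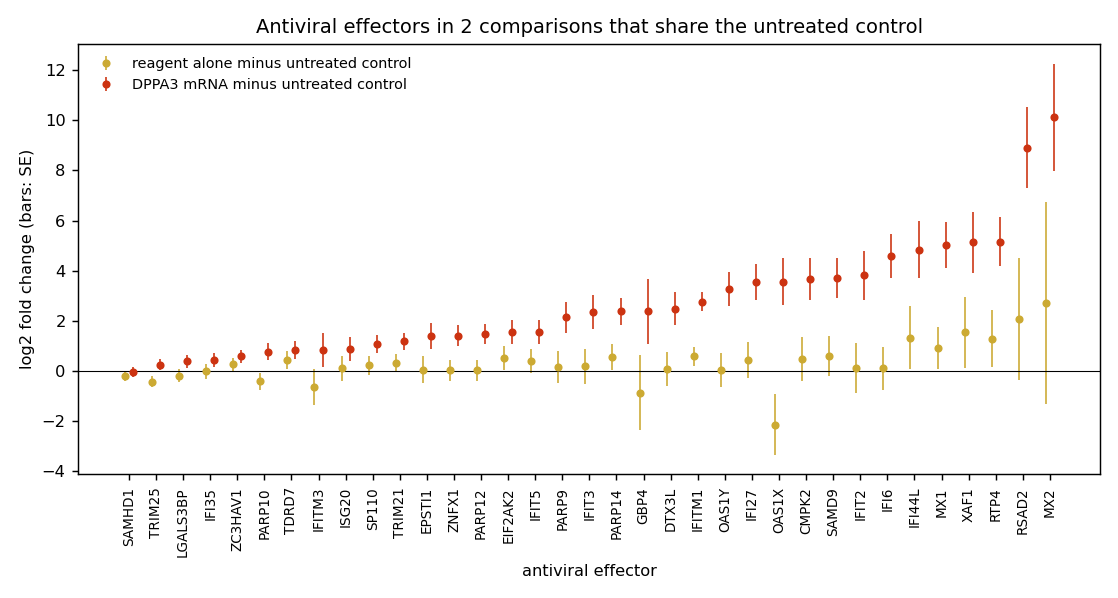
Fitted log2 fold change of each of the 35 tested antiviral effectors from untreated control to reagent alone (yellow) and to DPPA3 mRNA (red), with bars for the SE and genes ordered by the red value. The medians over all 35 are 0.19 and 2.37. Over the 30 that pass the filter without the DPPA3 mRNA libraries they are 0.14 and 1.56. Both comparisons use the same 3 controls, and the values of MX2, at 0 counts there, depend on the prior count.

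Of the called genes without a standard symbol, LOC100298356 and LOC112441507 are neighbouring protein-coding genes in the RefSeq table of ARS-UCD2.0, between MVB12A and LOC618737. LOC100298356 measured 6.26, 80.2 and 14.5 CPM with DPPA3 mRNA and 1.13, 1.84 and 0.59 CPM in the controls. LOC112441507 measured 5.81, 124 and 15.7 CPM against 0, 0.43 and 0.88 CPM. Both had the order 2, 3, 1 without overlap, and both were called with the replicate block (edgeR adjusted p 0.0245 for each, 0.206 for each without it). LOC112441507 passed the filter only through the DPPA3 mRNA libraries. How far their reads are shared with each other or with LOC618737 was not tested. LOC100139670, which lies next to IFIT3, measured 8.22, 230 and 28.9 CPM against 4.19, 7.47 and 3.62 CPM. It was called with the block on the 6 libraries (edgeR adjusted p 0.0328), as was LOC512486 (7.99, 18.6 and 3.82 CPM against 1.13, 1.08 and 1.27 CPM; adjusted p 0.0479).

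LOC100847765, a long noncoding RNA gene next to DDX20, was the 1 gene called lower under the block. It measured 27.8, 13.6 and 9.51 CPM with DPPA3 mRNA and 164, 155 and 176 CPM in the controls. The reagent alone libraries were at 70.0, 8.08 and 7.17 CPM, so all 6 libraries with reagent lay below all controls. It fell with the block (log2 fold change -3.58; edgeR adjusted p 0.0182). Without a block the log2 fold change was -3.28 (SE 0.69; edgeR adjusted p 0.375 on all 9 libraries and 0.02 on only the 6), and limma voom also called it (adjusted p 0.000366). Of that difference, -2.64 lay between untreated control and reagent alone and -0.63 between reagent alone and DPPA3 mRNA.

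ENO4, an enolase known from sperm, had another order of libraries than the interferon genes. Its levels in DPPA3 mRNA replicates 1, 2 and 3 were 340, 6.14 and 1355 CPM, against 5.64, 10.5 and 9.97 CPM in the controls and 5.73, 8.80 and 6.22 CPM with reagent alone. Replicates 1 and 3 were far above all other libraries, whereas replicate 2, the library highest in the interferon genes, was inside the control range. The log2 fold change was 6.0 (SE 1.19, edgeR adjusted p 0.319, or 0.385 with the block on all 9 libraries). DESeq2 without a block called ENO4. Without replicate 2 the log2 fold change was 6.58 (edgeR adjusted p 3.43e-05). That fit leaves out the 1 transfected library inside the control range, so a small p was favoured. ENO4 was named after its values were seen.

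Among the genes with a symbol picked by smallest p without overlap, the lower ones differed by less than the higher ones. Over all genes without overlap, the median size on the log2 scale was 0.58 in the 631 higher and 0.44 in the 574 lower. Of these, 140 and 90 differed over 2-fold. The higher genes include some that pass the filter only through the DPPA3 mRNA libraries. The 12 genes of smallest p without overlap were DAGLA, RN18S1, DPYSL4, ZNF580, MMP28, DHX34, ZBTB7B, NLGN2, HR, FLYWCH1, MFSD13A and PCSK1N. They had log2 fold changes from -1.12 to -0.46 and unadjusted p from 0.00387 to 0.0131, and edgeR called none (adjusted p 0.852). DAGLA, which makes the endocannabinoid 2-AG, measured 10.3, 9.30 and 9.34 CPM with DPPA3 mRNA and 20.1, 15.4 and 16.7 CPM in the controls. MMP28, a secreted metalloproteinase, measured 18.4, 21.0 and 23.2 CPM against 30.1, 29.2 and 33.7 CPM. RN18S1, the 18S ribosomal RNA, measured 9974, 9754 and 8744 CPM against 15480, 13960 and 10270 CPM. Levels within the DPPA3 mRNA group were even, with the highest library at most 1.51 times the lowest in these 12 genes. Picking small differences by p and no overlap favours such evenness, so no contrast with the higher genes is drawn from it. Untreated control replicate 1 was the highest control in 10 of the 12, against 62.54% of the 574 lower genes without overlap and 39.6% of all genes, and without it the log2 fold changes were -0.73 to -0.33. In 8 of the 12 every reagent alone library was also below every control, against 1072 of all 14874 genes. The 12 were picked for controls above DPPA3 mRNA, so high controls favour this count. The step from control to reagent alone was -1.005 to -0.36, and that from reagent alone to DPPA3 mRNA -0.40 to 0.18. These comparisons share libraries, and the values are given side by side only. The part of control replicate 1 in these differences was not tested further.

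**Figure D4:**
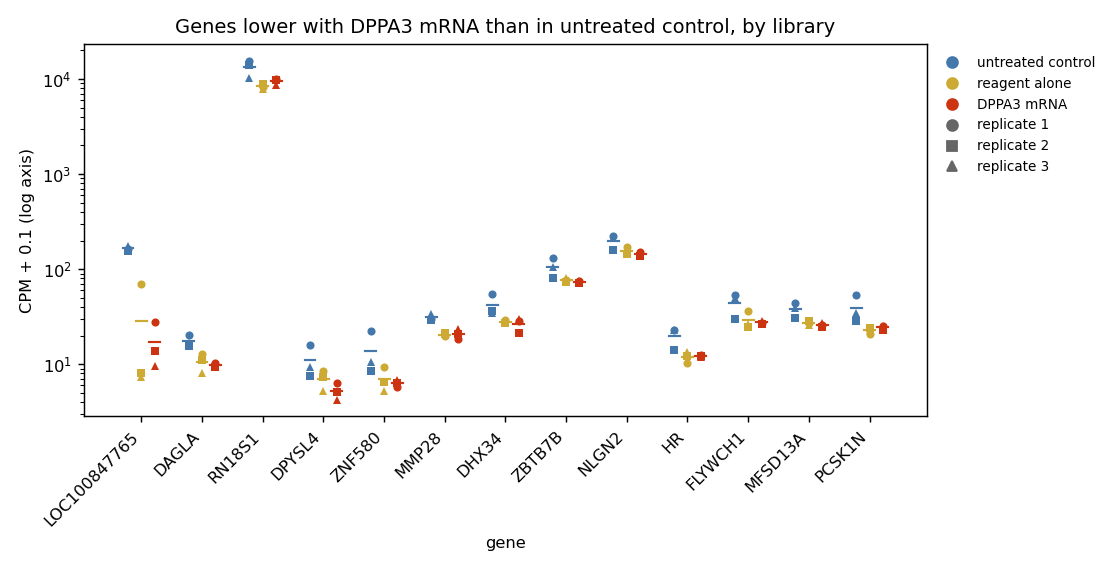
Level of LOC100847765 and the 12 genes of smallest p in the lower direction without overlap, on a log axis (CPM + 0.1); points are libraries, shapes replicate numbers, colours groups and bars group means. The DPPA3 mRNA and reagent alone points lie close together below the controls in most genes. The 12 were picked for controls above DPPA3 mRNA. Control replicate 1 is the highest control in 10 of them, against 39.6% of all genes.

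Lists outside the interferon response and antigen presentation are described together. Over 14 such lists with 271 tested genes, edgeR called none with or without the block, and 7 had an unadjusted p under 0.05 higher and 3 lower. In 13 (4.80%) the groups did not overlap upward, against 4.24% of all genes, and in 4 (1.48%) downward, against 3.86%. Medians of those with at least 5 tested genes lay between -0.16 and 0.16. Of 35 genes of pregnancy and receptivity, 11 had a fitted difference above 0 and 24 below, with a median of -0.12. All genes divided into 7465 and 7409. The median over the 35 was -0.11 from control to reagent alone and -0.0067 from reagent alone to DPPA3 mRNA. In 0 of the 35 did the groups not overlap upward and in 1 downward, against 4.24% and 3.86% of all genes. Among them HOXA10, a homeobox factor of the receptive endometrium, measured 6.71, 6.41 and 7.38 CPM with DPPA3 mRNA and 11.3, 12.02 and 8.41 CPM in the controls. The groups did not overlap (log2 fold change -0.62, SE 0.29, edgeR adjusted p 0.852). Unlike the median of its list, HOXA10 differed by -0.01 from control to reagent alone and by -0.61 from reagent alone to DPPA3 mRNA. DNAJB9, a chaperone of the endoplasmic reticulum, measured 9.65, 11.8 and 7.81 CPM against 2.42, 6.82 and 3.03 CPM. Its difference of 1.24 (SE 0.37; edgeR adjusted p 0.852) lay between control and reagent alone for 1.16 of it, and the 3 reagent libraries (8.47, 10.9 and 8.35 CPM) lay within the range of the transfected ones.

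Of the list on DNA methylation and DPPA3 partners 19 genes were tested, with a median of -0.11 and none called. The median was -0.10 from control to reagent alone and 0.03 from reagent alone to DPPA3 mRNA. TET2, which oxidises 5-methylcytosine, measured 76.5, 69.0 and 70.2 CPM with DPPA3 mRNA and 57.7, 63.6 and 57.0 CPM in the controls. IDH1, whose product is the cosubstrate of the TET enzymes, measured 31.2, 39.4 and 32.2 CPM against 22.1, 27.9 and 25.4 CPM. Both were without overlap and not called (edgeR adjusted p 0.852 for each), and both were close to their reagent alone levels (63.6 to 79.7 CPM for TET2 and 31.6 to 33.1 CPM for IDH1). Epithelial markers summed to 9355 to 10450 CPM with DPPA3 mRNA and 9526 to 11770 CPM in the controls, and stromal markers to 17580 to 22670 CPM and 18770 to 32550 CPM. Immune markers summed to 10.6 to 16.5 CPM and 11.9 to 14.8 CPM. The 13 protein transcripts of the mitochondrial genome, a list added after the data were seen, had a median of 0.37, or 0.03 without control replicate 1, and in 0 of them did the groups stay apart.

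**Figure D5:**
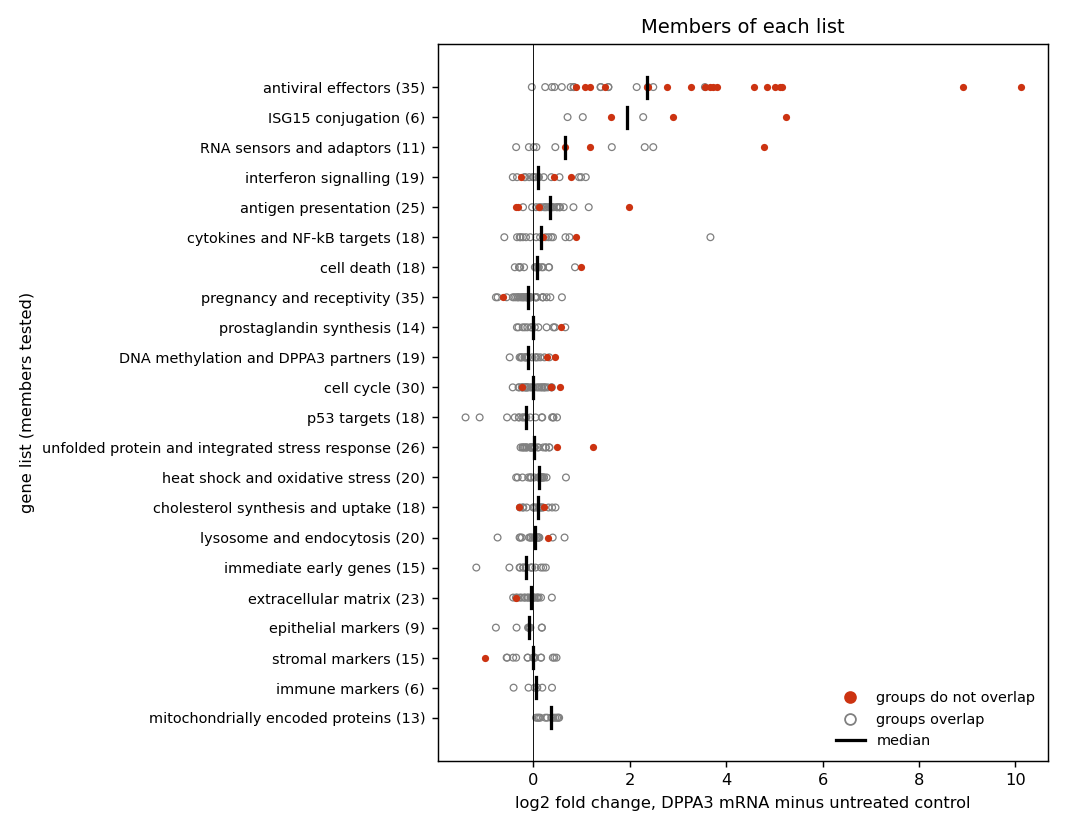
Each point is 1 tested gene of a list, placed by its log2 fold change between DPPA3 mRNA and untreated control; red points have no overlap between the groups, open points do, and a black bar marks the list's median. The antiviral effectors (median 2.37) and ISG15 conjugation (1.94) stand to the right. Medians of the other lists drawn lie between -0.16 and 0.65. Of the 35 effectors, 5 pass the filter only through the DPPA3 mRNA libraries, and the median of the other 30 is 1.56. The value of MX2 depends on the prior count.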

How the data were processed

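Per the labels, total RNA for 9 libraries was isolated with TRIzol and DNase, and the IDT xGen RNA kit was used for the libraries. The authors deposited raw read counts per gene in 1 table. Tools in the submitters' processing notes are edgeR, HISAT2, HTSeq and Trimmomatic. The genome build, tool roles and use of strand were not given in the sources used here. No coordinates are printed, and reads of overlapping or antisense genes may be mixed. Of 30641 symbols, 24552 matched the RefSeq table of ARS-UCD2.0, used for names and neighbours only.

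Genes were filtered with filterByExpr (0.91 CPM in at least 3 libraries), which left 14874. Libraries were scaled with TMM and the 3 groups fitted together in edgeR 4.0.16 (glmQLFit, glmQLFTest; R 4.3.3) with a term for group and no other. The biological coefficient of variation was 0.255. Genes with p under 0.05 after Benjamini-Hochberg adjustment, taken over all tested genes, were called. The SE was obtained by dividing a log2 fold change by the root of its F statistic. No 2 replicates agreed within sampling noise (lowest chi-square per degree of freedom 14.4). The scripts were tested on simulated data.

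Members, lists and tests were chosen with earlier results of these data known, so the lists are not independent evidence. Names were drawn from a rule: DPPA3, genes called with or without the replicate block, the 12 genes of smallest p in each direction with a symbol that is not a LOC number, mean CPM of 5 or more and no overlap, and up to 4 genes of smallest p per list. Not every gene of the rule is described with its values. ENO4, STAT2, TLR3, TANK, IL10RB, B2M, TAPBPL, CD74, IFI30, GBP4 and XAF1 were named after their values were seen, as were marker genes outside the rule.

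Replicate numbers recur in the labels. Equal numbers of the 2 groups deviated together from their group means (r 0.34, 0.32 and 0.12, each over the limit of 0.1). Blocked values are therefore printed beside unblocked ones, on the data's evidence and not the labels'. The calls given first come from the fit without the block. Unequal numbers were not compared in the same way, so the pairing was not established, and calls made only with the block depend on it. Alternatives were DESeq2 size factors, no filter, DESeq2 1.42.0, limma 3.58.1 voom with quality weights, only the 6 libraries, DPPA3 left out of library sizes, the replicate block, and each library left out in turn.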

Additional observations from a re-analysis of the deposited data

How the results depend on the processing

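The number of genes called depended on the processing. Against 2 genes in edgeR, it was 69 without the filter on low counts, 10 with DESeq2, 4 with limma voom, 2 with only the 6 libraries (DPPA3 and LOC100847765), 7 with the replicate block and 20 with the block on the 6 libraries. It was 0 with DPPA3 left out of library sizes, a fit in which DPPA3 itself was not tested and so could not be called. There IFITM1 had an edgeR adjusted p of 0.0745 and 588 genes had an unadjusted p under 0.05. Leaving out 1 library gave 1 to 26 genes, the highest without DPPA3 mRNA replicate 1. The 7 genes called with the block were all among the 20 and the 69.

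Chosen after seeing the data, the block without DPPA3 mRNA replicate 2 called 8 genes, 4 of them among those 7, and without control replicate 1 it called 33, among them all 7. The same 2 fits on the 6 libraries called 160 and 159, but leave 1 residual degree of freedom and gave adjusted p down to 0, so once this was seen their values for single genes and lists were set aside.

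Against 582 genes at an unadjusted p under 0.05 there were 1181 without the filter, 2437 with limma voom, 336 with only the 6 libraries, and 1391 and 1571 with the block on 9 and 6 libraries, or 2010 and 1344 on the 6 without DPPA3 mRNA replicate 2 or control replicate 1. Leaving out 1 library gave 201 to 2874. Genes without overlap went from 1205 to between 1944 and 5197 with 1 library fewer, as fewer samples must give. The median of all tested antiviral effectors ranged from 0.75 to 2.78 with 1 library left out and was 0.84 with the block without DPPA3 mRNA replicate 2. Over the 30 that pass the filter without the DPPA3 mRNA libraries, these values were 0.68 to 1.93 and 0.83.

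Of 131 named genes, 11 changed sign in at least 1 alternative, none of them called there, and the cause was not tested. With 1 library left out the log2 fold change ran from -0.55 to 0.049 for PTGIS, -0.52 to 0.031 for PTGER4, -1.12 to 0.10 for KLF4, -0.60 to 0.31 for MAEL, -0.81 to 0.11 for FOSL1, -0.49 to 0.069 for JUNB, -0.042 to 0.61 for VWF, -0.0066 to 0.69 for CD68, -0.085 to 0.82 for CD79A, and -0.11 to 0.18 for AIF1. Those of PTGIS, PTGER4, KLF4, MAEL, FOSL1 and JUNB turned without control replicate 1. With the block and without that library, FOSL1 was 0.014 and COL4A2 0.058, and with the block and without DPPA3 mRNA replicate 2, MAEL was 0.23. CD68 was -0.14 with voom. Over single genes and alternatives, 1952 values kept direction and side of the threshold, 111 passed it newly and 7 lost it, all of IFITM1: with only the 6 libraries, with DPPA3 left out of library sizes, and without each library but DPPA3 mRNA replicate 1. Without DPPA3 mRNA replicate 1 MX1, MX2, RSAD2, IFI6 and ISG15 were among the 26 genes called.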
